A study of Mus musculus with 20 samples.

Results

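The mitochondrial ribosomal protein genes of the mouse were taken as the protein-coding genes whose symbol begins with Mrpl or Mrps followed by a digit. This rule gave 78 genes among the 49315 gene IDs counted. By their known place in the ribosome, 51 belong to the large subunit and 26 to the small subunit. The remaining member, Mrps36, carries a ribosomal name but is known as a part of the 2-oxoglutarate dehydrogenase complex. Of the 77 ribosomal proteins, 48 have a homolog in bacterial ribosomes and 29 are specific to mitochondria. Mrps18a and Mrps30 were counted with the large subunit, where their proteins sit. All 78 genes passed the filter on low counts, with a mean CPM (the count relative to the scaled library total) above 1 in every group, so none was lost from the tests.

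Mitochondrial ribosomes translate only the messenger RNAs of the mitochondrial genome, which code for membrane subunits of the respiratory chain and the ATP synthase. Their ribosomal RNA comes from the mitochondrial genome, but every protein of both subunits is encoded in the nucleus, made in the cytosol and imported. A T cell that leaves rest enlarges its mitochondria and their protein synthesis as it prepares to grow and divide.

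The study compared splenic T effector cells of mice with and without Pcbp2, an RNA-binding protein, at rest and after activation. Cells were sorted as CD4+CD25- to a purity above 99%, per the labels. The controls (CTL) carried a floxed Pcbp2 gene and no Cre is named for them. The conditional knockouts (CKO) were littermates with the floxed gene and CD4cre, a Cre recombinase driven by Cd4, which acts in developing T cells. Groups were CTL at 0 h (unstimulated, 6 libraries), CKO at 0 h (6), CTL stimulated for 6 h with CD3/CD28 activator beads (5) and CKO stimulated likewise (3). The sources used here give neither strain nor age. Cells held in culture for 6 h with no beads were not analysed here, so bead stimulation and time in culture cannot be told apart.

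Libraries are named by the number in their titles. They held 62402807 to 85608113 counts, apart from 1 of CTL at 6 h, number 4.24, with 26427467. Pcbp2 averaged 333 ± 46.9 CPM (SD, n = 6) in CTL and 17.0 ± 3.39 (n = 6) in CKO at 0 h, and 322 ± 34.5 (n = 5) and 8.72 ± 2.24 (n = 3) at 6 h. Summed markers of B cells ran from 518 to 963 CPM in CTL and 413 to 934 CPM in CKO at 0 h, and from 87.9 to 134 and 114 to 285 CPM at 6 h. Most of this sum was Ighm, with means of 507 and 547 CPM at 0 h and 81.5 and 134 CPM at 6 h. Ebf1 was the B cell marker not called lower in CTL at 6 h (log2 change 0.95, edgeR adjusted p = 0.22). Myeloid markers ran from 69.0 to 195 CPM in CTL and 97.3 to 229 CPM in CKO at 0 h, and from 14.2 to 35.6 and 18.4 to 59.1 CPM at 6 h. Natural killer markers ran from 46.5 to 116 CPM in CTL and 32.3 to 66.9 CPM in CKO at 0 h, and from 23.9 to 47.5 and 21.5 to 34.5 CPM at 6 h. The 2 markers of CD8 T cells, summed, ran from 19.2 to 114 and 26.5 to 52.4 CPM at 0 h, and from 12 to 17.7 and 14.6 to 21.1 CPM at 6 h. Markers of T cells ran from 6237 to 7999 and 7102 to 8536 CPM at 0 h, and from 3601 to 4392 and 4096 to 4586 CPM at 6 h. Markers of red blood cells summed to at most 4.15 CPM in any library. Each T cell, CD8, B cell, myeloid and natural killer marker was detected in every group. The 7 stromal and endothelial markers summed to 232 to 278 CPM in CTL and 258 to 340 CPM in CKO at 0 h, and to 191 to 245 and 255 to 357 CPM at 6 h, most of it Pecam1. The collagen genes Col1a1, Col1a2 and Col3a1 and the pericyte marker Pdgfrb were called higher in CTL at 6 h (edgeR under TMM). Col1a2 had a mean of 0.264 CPM in CTL at 0 h, and at 6 h it read 9.90 CPM in library 4.24 and at most 1.54 CPM in the other 4. Without library 4.24, the log2 change of these 4 genes was 0.99 to 2.80 and each was still called. The other listed markers of this kind did not rise with them. Pecam1 was called lower in CTL at 6 h (log2 change -0.37, edgeR adjusted p = 0.0082, lower under 2 of 4 scalings). Cdh5 (-0.73) and Kdr (0.08) were not called. The sums of T cell, B cell, myeloid, natural killer and CD8 markers were lower at 6 h, alongside every 6 h response below, and the part of any marker in those responses was not tested. In bulk RNA, fewer cells of a type and less RNA per cell cannot be told apart. In CKO at 0 h, the libraries 4.24 and 5.6 are labelled male but had 1160 and 1353 CPM of Xist and 0.28 and 0.12 CPM of Ddx3y, so their labels and their sex-linked genes disagreed. The CKO library 5.6 at 6 h is labelled female, with 813 CPM of Xist and 0.18 CPM of Ddx3y, so that number carries both sex labels in CKO. None of the 78 members lies on the X or Y chromosome.

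The promoters of the members are shown first, since motifs of the same factors recurred in them. Windows of 300 bases, from 250 before to 50 after the RefSeq start (GRCm38.p6), were found for 69 of the 78 members, 75 windows in all. The motif of nuclear respiratory factor 1 (GCGCA, any base, then GCGC), a regulator of nuclear genes for mitochondrial proteins, was in 17.3% of them and in 4.6% of all 32851 windows. That of ETS factors (CCGGAAG), which include the mitochondrial regulator GABP, was in 34.7% against 8.86%. That of YY1 (AAGATG followed directly by GCGGC) was in 6.67% against 0.633%, and the E-box (CACGTG), which Myc can bind, was in 9.33% (7 windows of 5 genes) against 7.15%. Among the 20150 windows of protein-coding genes alone, the 4 shares were 6.6%, 11.9%, 0.938% and 8.03%. Both strands were searched, so a match may appear as its reverse complement, and none of the 4 motifs contains another. Counted once per gene, 41 members had at least 1 of the motifs and 28 had none. Counted by window, at least 1 was in 57.3% of the member windows and in 18.7% of all windows. A match describes letters in a window and shows no binding. The stretches below lie before the annotated starts of members that rose (Mrpl12, Mrpl17, Mrpl20, Mrps6), did not pass the test (Mrps18a) or fell (Mrps26) in CTL cells after 6 h. Capitals mark a motif match.
Mrpl12, chr11:120484387-120484612, plus strand: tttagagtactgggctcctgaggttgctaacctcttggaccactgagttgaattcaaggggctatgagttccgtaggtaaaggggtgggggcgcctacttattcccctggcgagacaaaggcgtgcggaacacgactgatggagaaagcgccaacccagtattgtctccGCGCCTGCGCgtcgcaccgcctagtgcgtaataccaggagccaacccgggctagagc
Mrpl17, chr7:105811100-105811337, minus strand: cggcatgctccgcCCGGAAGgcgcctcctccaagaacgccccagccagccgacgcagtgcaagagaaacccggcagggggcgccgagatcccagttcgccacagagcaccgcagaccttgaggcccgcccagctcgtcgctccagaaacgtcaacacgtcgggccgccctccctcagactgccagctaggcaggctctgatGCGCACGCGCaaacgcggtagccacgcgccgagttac
Mrpl20, chr4:155802628-155802877, plus strand: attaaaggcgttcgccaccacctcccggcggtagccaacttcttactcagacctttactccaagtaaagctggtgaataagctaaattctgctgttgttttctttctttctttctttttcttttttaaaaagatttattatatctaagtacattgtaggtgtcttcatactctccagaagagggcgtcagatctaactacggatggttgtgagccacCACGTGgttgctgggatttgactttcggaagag
Mrps6, chr16:92058086-92058269, plus strand: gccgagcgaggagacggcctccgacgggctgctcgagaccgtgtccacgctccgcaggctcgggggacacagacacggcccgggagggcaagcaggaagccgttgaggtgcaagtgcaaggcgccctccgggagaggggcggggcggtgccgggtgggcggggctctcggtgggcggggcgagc
Mrps18a, chr17:46110754-46110985, plus strand: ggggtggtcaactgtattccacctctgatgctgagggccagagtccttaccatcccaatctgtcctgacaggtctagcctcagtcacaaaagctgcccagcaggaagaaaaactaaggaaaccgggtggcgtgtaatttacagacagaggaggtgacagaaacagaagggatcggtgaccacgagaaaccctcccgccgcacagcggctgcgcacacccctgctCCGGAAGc
Mrps26, chr2:130563507-130563741, plus strand: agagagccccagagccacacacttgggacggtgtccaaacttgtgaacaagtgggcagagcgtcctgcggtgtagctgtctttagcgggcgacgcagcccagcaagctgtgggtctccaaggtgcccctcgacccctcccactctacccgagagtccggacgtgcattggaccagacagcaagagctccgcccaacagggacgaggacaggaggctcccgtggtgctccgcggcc

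Mrpl12 carries a match to nuclear respiratory factor 1, Mrpl17 that match and an ETS match, Mrpl20 an E-box and Mrps18a an ETS match. The stretches of Mrps6 and Mrps26 hold none of the 4 motifs before the start. Calls of members with and without a motif are those of the 6 h response in CTL cells under TMM, where 41.6% of all genes were called higher and 21.7% lower. The split of these calls turns with the scaling, as given below. Of the 13 genes with the motif of nuclear respiratory factor 1, 5 were called higher and 2 lower, and of the 56 others with a window, 16 and 13. Of the 26 genes with an ETS match, 6 were called higher and 8 lower, and of the 43 without one, 15 and 7. Of the 5 genes with a YY1 match, 1 was called higher and 1 lower, and of the 64 others, 20 and 14. The 5 genes with an E-box had a median log2 change of 0.33, with 3 called higher and 0 lower, and the 64 without one a median of 0.08. These groups are small and were not compared by a test.

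The members also share a position feature. A second protein-coding gene starts within 1 kb on the other strand, head to head, for 18 of the 78 (23.1%), against 6.79% of 21811 protein-coding genes. Mrps18c starts 29 bp from Helq, Mrpl54 26 bp from Apba3 and Mrps12 172 bp from Sars2, the serine tRNA ligase of mitochondria. Under TMM, 8 of the 18 pairs had the same sign in CTL cells, with a Spearman correlation of 0.10 between member and partner log2 changes. Signs of changes near 0 can turn with the scaling, and other scalings were not tried for the pairs. The share for other head-to-head pairs is not given here, so no conclusion is drawn. Mrps18c was 0.47 ± 0.14 higher on the log2 scale after 6 h where Helq was 0.71 ± 0.09 lower (edgeR adjusted p = 0.0074 and 4.9e-06). Exon bases are shared with another gene by 33 members (42.3%, against 29.5% of protein-coding genes), 28 of them with a gene on the opposite strand and 8 on the same strand, and the sources used here do not give the strand setting of the counting.

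At rest the members differed widely from each other in level. Per kilobase of messenger RNA, levels in CTL at 0 h ran from 2.48 to 108 CPM, with a median of 16.6. The highest was Mrpl33, a small protein of the large subunit, at 108 ± 10.9 CPM per kb (SD, n = 6), followed by Mrpl24 at 88.7 ± 8.05 and Mrpl52 at 85.2 ± 10.2, which lay within each other's spread. Mrps21, the highest of the small subunit, was at 57.6 ± 7.65 and Mrpl30 at 44.7 ± 6.63. At the low end were Mrpl47 at 3.84 ± 0.37, Mrpl1 at 3.76 ± 0.33 and Mrpl35 at 3.67 ± 0.32, which lay within each other's spread. Mrps25 at 2.51 ± 0.28 and Mrpl17 at 2.48 ± 0.37 were lower again and as close to each other. The order depended on the length used. By the summed length of all annotated exons, Mrpl33 was at 7.07 CPM per kb, Mrpl24 led at 52.7, and the rank correlation (Spearman) between both orders was 0.74 across the 78 genes.

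**Figure D1:**
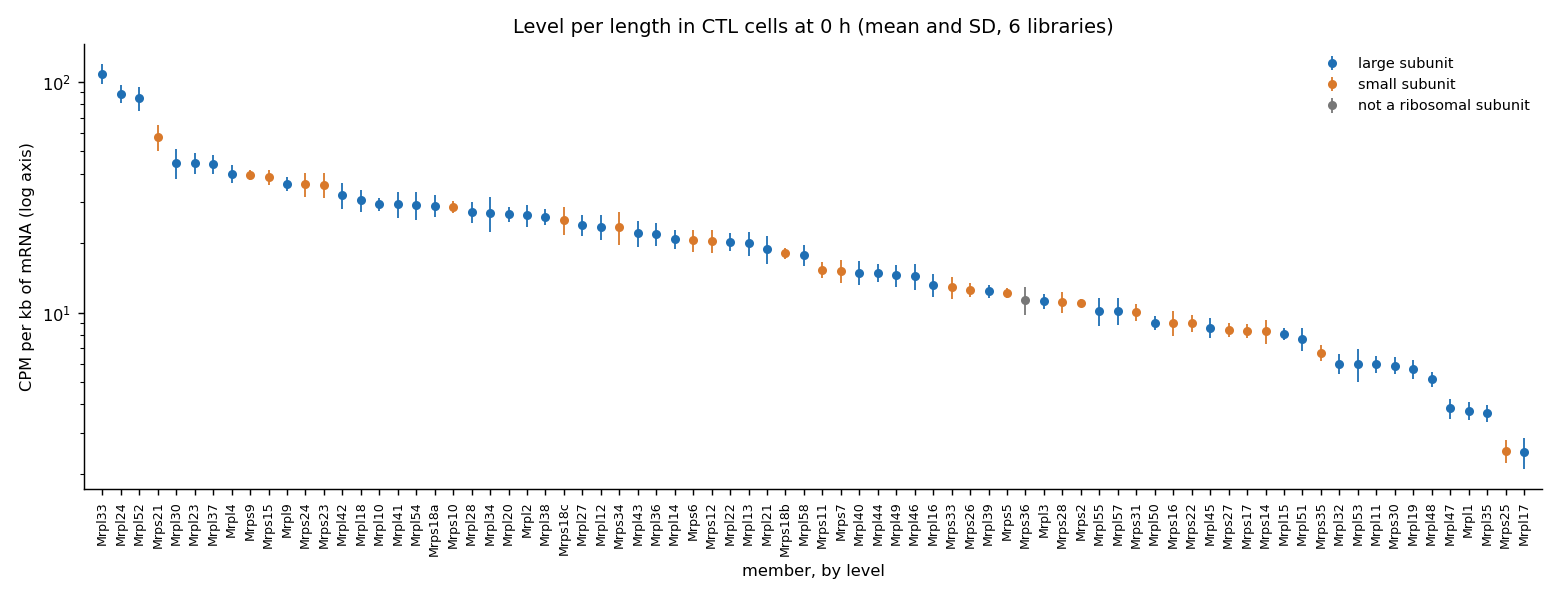
Mean CPM per kb of messenger RNA of each of the 78 members in CTL cells at 0 h, on a log axis, with bars for the SD over 6 libraries. Levels run from 2.48 (Mrpl17) to 108 (Mrpl33). The 3 highest belong to the large subunit, and the highest of the small subunit is Mrps21 at 57.6.

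Summed over all members, the levels of the 4 groups overlapped. The sum was 2168 ± 154 CPM (SD, n = 6) in CTL and 2237 ± 160 (n = 6) in CKO at 0 h, and 2186 ± 140 (n = 5) and 2030 ± 190 (n = 3) at 6 h. Within the 5 numbers that CTL and CKO share at 0 h, the CKO library had the higher sum in all 5, by 119 ± 64.9 CPM (SD) and by 15.8 to 192 CPM. The exact two-sided sign-flip permutation p was 0.0625, the smallest that 5 pairs allow. This test therefore could not pass the threshold used for calls, and no conclusion on the genotypes is drawn from it. The direction was 5 of 5 under RLE factors and total counts too, but these rescale the same 5 pairs and are no independent evidence. At 0 h 19 members were higher in CKO in every number and 1 was lower in every number, beside 8.70% and 9.60% of all genes tested. From 0 h to 6 h the sum was higher in 2 of 5 numbers in CTL (4 of 5 under RLE factors or total counts) and in 1 of 3 in CKO. Scaled by total counts alone, CTL at 6 h came to 2479 ± 422 and CTL at 0 h to 2056 ± 83.5. The ratio of large-subunit to small-subunit sums does not depend on the scaling. It ran from 2.04 to 2.12 in CTL and 2.05 to 2.12 in CKO at 0 h, from 2.12 to 2.36 in CTL at 6 h and from 2.10 to 2.19 in CKO at 6 h. Every 6 h library of CTL was thus above every 0 h library of CTL in this ratio, by a narrow margin.

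In CTL cells single members rose and fell after 6 h. With libraries scaled by TMM, 23 of 78 members were called higher and 17 lower (edgeR quasi-likelihood test, adjusted p under 0.05 over all 28082 genes), beside 41.6% of all genes higher, 21.7% lower and 63.4% either way. The split turned with the scaling. Relative log expression (RLE) factors gave 28 higher and 9 lower (43.8% and 18.5% of all genes), total counts 43 and 4 (50.1% and 13.6%), and TMM restricted to genes averaging 1 CPM or more (expressed genes) gave 42 and 5, beside 27.8% and 24.7% of genes in that fit. The median log2 change of the members was 0.06 under TMM, 0.15 under RLE, 0.34 under total counts and 0.32 under the stricter filter. The median of all genes tested was 0.31 under TMM, 0.39 under RLE and 0.57 under total counts, so the members lay below that median. Whether the members lay above or below thus depended on the reference genes. The median of expressed genes moved alike, from -0.20 to -0.12, 0.05 and 0.03, so the members lay 0.26 to 0.29 above it under each of the 4 scalings. That distance was 0.19 without library 4.24 of CTL at 6 h, the lowest of 35 settings, and 0.34 without library 5.13 of that group, the highest. Leaving out CKO 4.29, CKO 5.6, CKO 9.20 or CTL 5.6 at 0 h left 8 members called higher under TMM, and leaving out CTL 9.20 at 0 h left 9. The shares of all genes called in these fits are not given here.

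**Figure D2:**
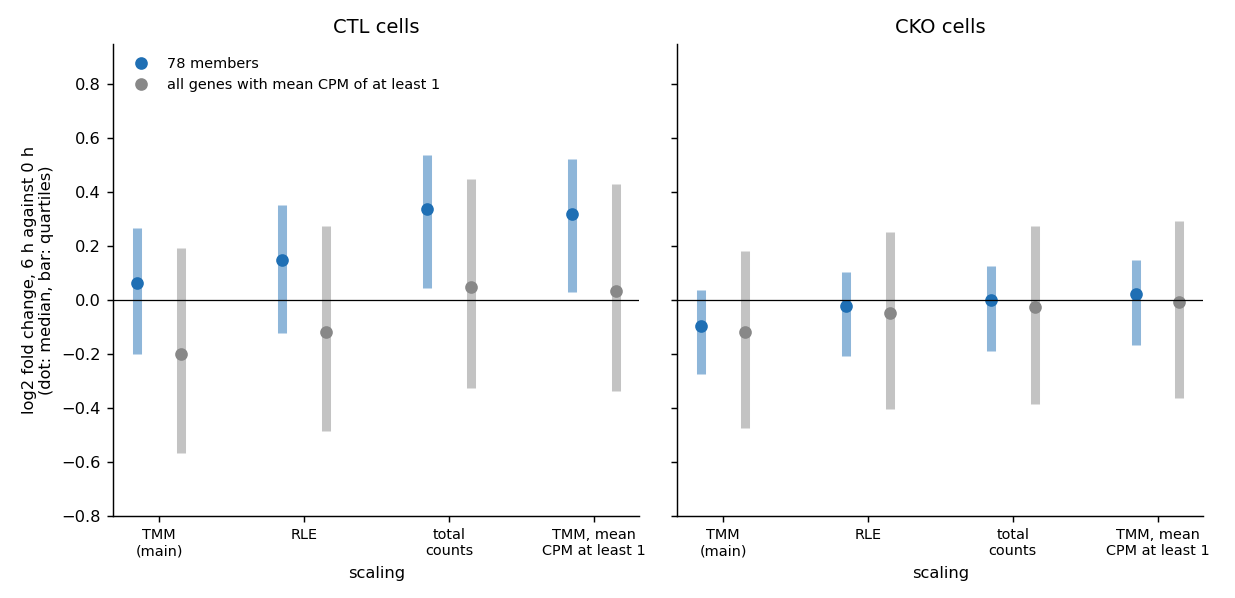
Median (dot) and quartiles (bar) of the log2 fold change from 0 h to 6 h over the 78 members (blue) and over expressed genes (grey), under 4 scalings, in CTL (left) and CKO (right). In CTL both medians shift with the scaling while the members stay 0.26 to 0.29 above the expressed genes. The median of all genes tested, not drawn, was above that of the members in CTL under TMM, RLE and total counts. In CKO the medians drawn differ by 0.02 to 0.03.

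Beyond the scaling, 23 members were called higher and 4 lower under all 4 scalings, and none was called in opposite directions. Single scalings called 27.8% to 50.1% of the genes tested higher and 13.6% to 24.7% lower. The share of all genes called alike under all 4 is not given here, so these counts describe the members only. With the same 4 scalings run again without library 4.24 of CTL at 6 h, 13 of the 23 and all 4 of the lower members kept their call in all 8 fits. Over all 35 settings, leaving out each library in turn included, 7 members were called higher each time: Mrps6, Mrpl17, Mrpl20, Mrpl12, Mrpl15, Mrpl21 and Mrps18c. The 4 called lower each time were Mrpl33, Mrps26, Mrpl4 and Mrps15. The share of all genes called each time is not given here either.

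**Figure D3:**
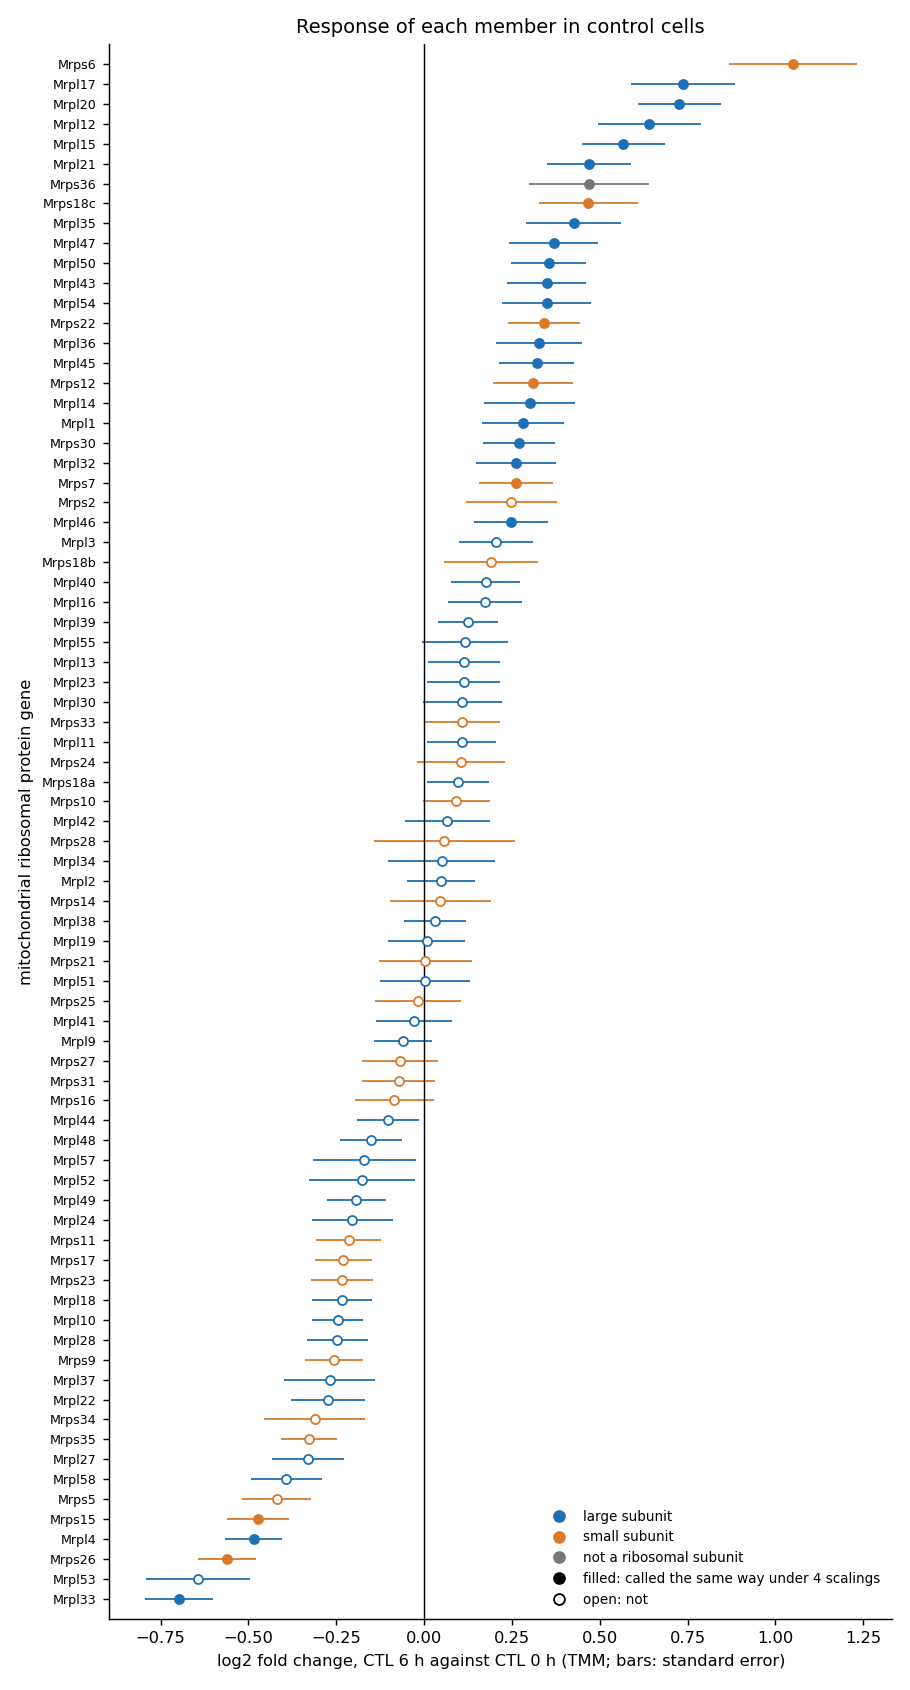
Log2 fold change of each member from 0 h to 6 h in CTL cells under TMM, with bars for the standard error, coloured by subunit. Filled points mark the 23 members called higher and the 4 called lower under all 4 scalings. The share of all genes called so is not given. Values run from -0.70 (Mrpl33) to 1.05 (Mrps6).

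Mrps6, a protein of the small subunit's platform, rose the most. Its 0 h libraries of CTL read 16.6, 16.4, 21.3, 16.8, 15.9 and 17.2 CPM, and its 6 h libraries 31.5, 37.2, 23.6, 48.9 and 39.1 CPM. The groups do not overlap, and library 5.13 is the closest to them at both times. The log2 change was 1.05 ± 0.18 (SE; edgeR adjusted p = 8.55e-05), and 1.13 to 1.31 under the other 3 scalings. Mrps6 (chromosome 16, 92058270 to 92112227, plus strand, GRCm38) shares exon bases with Slc5a3, an inositol transporter gene on the same strand. Slc5a3 rose by 0.99 on the log2 scale (adjusted p = 0.0038), from a mean of 41.8 to 86.1 CPM, so reads of both genes may not be fully told apart.

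Among large-subunit proteins, Mrpl20 (chromosome 4, 155802878 to 155809975, plus strand) had no overlap between its groups either. It read 20.1, 21, 22.4, 18.2, 19.4 and 21.6 CPM in CTL at 0 h and 33.0, 43.6, 23.7, 36.7 and 32.0 CPM at 6 h, a log2 change of 0.73 ± 0.12 (edgeR adjusted p = 5.0e-05). The 6 h value of library 5.13 was again the lowest. Mrpl17, the lowest member per length, rose by 0.74 ± 0.15, from 18.1 ± 2.73 to 30.1 ± 6.21 CPM (adjusted p = 0.00029). Its groups overlap, because library 5.13 read 23.1 CPM at 0 h and 21.5 CPM at 6 h.

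Mrpl12 forms the flexible stalk that calls translation factors to the large subunit. It rose by 0.64 ± 0.15, from 31.0 ± 3.88 to 48.5 ± 8.0 CPM (edgeR adjusted p = 0.00094). Mrpl10, which anchors that stalk, was called higher under none of the 4 scalings. It read 50.5 ± 3.28 CPM at 0 h and 42.6 ± 1.84 CPM at 6 h. Its log2 change was -0.25 ± 0.07 under TMM (adjusted p = 0.0064), 0.01 under total counts and -0.00 with the stricter filter (adjusted p = 0.88 and 0.98), so the call for Mrpl10 rests on the scaling. Mrpl15 rose by 0.57 ± 0.12 and Mrpl21 by 0.47 ± 0.12 (adjusted p = 0.00041 and 0.0022), both proteins that bind the large ribosomal RNA.

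The 3 paralogs of bacterial protein S18 had different values. Mrps18c, the small-subunit neighbour of Mrps6, rose by 0.47 ± 0.14 (edgeR adjusted p = 0.0074). Its 5 libraries at 6 h read 21.9, 34.8, 17.6, 18.1 and 18.5 CPM against 13 to 19.7 at 0 h. Library 4.24 stands far above the others, and without it the change was 0.26 (adjusted p = 0.044). Mrps18b, of the small subunit, changed by 0.19 ± 0.13 (adjusted p = 0.22), and by 0.31 without library 4.24 (adjusted p = 0.045). Mrps18a, of the large subunit, changed by 0.10 ± 0.09 (adjusted p = 0.35), and by 0.35 under total counts and 0.33 with the stricter filter (adjusted p = 0.00059 and 0.0016). The differences among the 3 were not tested. Mrps36, the member that is no ribosomal subunit, rose by 0.47 ± 0.17 (adjusted p = 0.022, and 0.071 with the replicate block), with 17.2 CPM in library 4.24 and 7.55 to 10.8 CPM in the other 4 libraries at 6 h. Without library 4.24 its change was 0.26 (adjusted p = 0.14) and the call was lost.

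Mrpl33 fell the most in CTL cells. Its libraries read 49.3, 49.0, 51.3, 60.4, 45.7 and 55.0 CPM at 0 h and 29.8, 39.7, 30.6, 30.8 and 27.4 CPM at 6 h, with no overlap and library 4.24 the highest at 6 h. The log2 change was -0.70 ± 0.10 (edgeR adjusted p = 1.1e-05), and -0.43 under total counts (adjusted p = 0.0048). Mrps26, a mitochondria-specific protein of the small subunit, went from 53.7 ± 3.66 to 36.4 ± 3.39 CPM (log2 change -0.56 ± 0.08, adjusted p = 1.9e-05). Mrpl4, a large-subunit protein with a bacterial homolog, went from 51.3 ± 4.62 to 36.8 ± 3.37 CPM (-0.49 ± 0.08, adjusted p = 6.4e-05). Mrps15 went from 36.2 ± 2.77 to 26.2 ± 1.28 CPM (-0.47 ± 0.09, adjusted p = 0.00016). In each of these 4 genes every 6 h library was below every 0 h library. All members counted, 10 lay wholly below and 2 (Mrps6 and Mrpl20) wholly above, beside 12.6% and 17.3% of all genes tested.

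Other members called lower under TMM depended on the scale. Mrpl53, at 4.15 ± 0.67 CPM the member with the fewest counts, changed by -0.64 ± 0.15 (edgeR adjusted p = 0.00097) and by -0.38 under total counts (adjusted p = 0.054). It shares exon bases with another annotated gene of the same strand, Gm42688, which fell by 0.91 on the log2 scale (adjusted p = 0.00034). Mrpl58, a peptidyl-tRNA hydrolase built into the large subunit, changed by -0.39 ± 0.10 under TMM and -0.13 under total counts (adjusted p = 0.0023 and 0.29). Mrps5 changed by -0.42 ± 0.10 and -0.17 (adjusted p = 0.0011 and 0.052), and Mrpl27, next to the site of peptide bond formation, by -0.33 ± 0.10 and -0.06 (adjusted p = 0.0090 and 0.66). The members with the smallest change under TMM were Mrpl51, Mrps21, Mrpl19 and Mrps25, at 0.00, 0.00, 0.01 and -0.02, with standard errors of 0.11 to 0.13.

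By subunit, 17 of 51 large-subunit genes were called higher and 9 lower, and 5 of 26 small-subunit genes higher and 8 lower, beside 41.6% and 21.7% of all genes. Under total counts the counts were 32 and 2 in the large and 10 and 2 in the small subunit, beside 50.1% and 13.6%. Median log2 changes were 0.11 and -0.01, and 0.37 and 0.26 under total counts. Among bacterial homologs the counts were 15 higher and 12 lower of 48, and among mitochondria-specific proteins 7 and 5 of 29, and 30 and 3, and 12 and 1, under total counts. Across the 78 genes, which share libraries, the rank correlation (Spearman) of the log2 change was -0.45 with the CPM at 0 h, -0.27 with the level per kb at 0 h and -0.02 with messenger RNA length. The log2 change contains the same 0 h values, so a negative sign is partly built in.

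**Figure D4:**
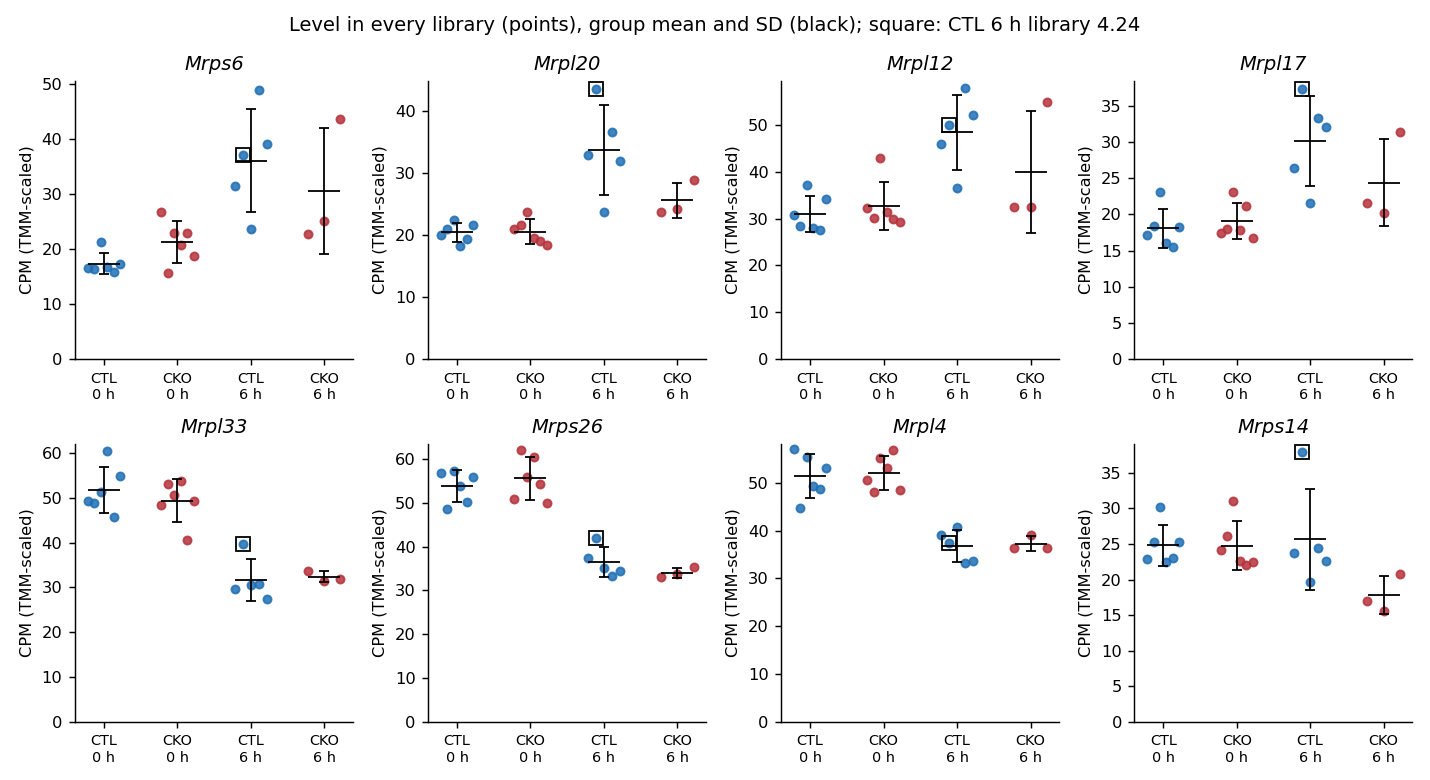
CPM of 8 members in each of the 20 libraries (points; CTL blue, CKO red), with group means and SD in black; the square marks library 4.24 of CTL at 6 h. Mrps6 and Mrpl20 have all CTL libraries at 6 h above those at 0 h, while Mrpl33, Mrps26 and Mrpl4 are lower at 6 h in both genotypes without overlap.

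In CKO cells no member was called higher after 6 h and 17 were called lower (edgeR, adjusted p under 0.05), beside 19.6% and 13.1% of all genes, 32.8% either way. DESeq2 and RLE factors each called 1 member higher, Mrps6, and 1 member had an unadjusted p under 0.05 for a rise. RLE factors gave 1 higher and 10 lower, beside 21.4% and 11.3% of all genes. Total counts gave 1 and 7 (22.1% and 10.6%), and the stricter filter 1 and 7 (16.5% and 17.7%). The same 7 were called lower under all 4 scalings and in all 35 settings: Mrps26, Mrpl33, Mrpl22, Mrps15, Mrpl4, Mrpl28 and Mrpl18. The share of all genes called lower in every fit is not given here. The median log2 change was -0.10 over the members and -0.12 over expressed genes, a distance of 0.02 that ran from -0.09 (without library 11.18 of CKO at 6 h) to 0.06 over the 35 settings. Over all genes tested the median was 0.12 under TMM, above that of the members. Without library 5.13 of CKO at 6 h, 8 members were called lower, without library 5.6 of that group 9, and without library 5.13 of CKO at 0 h 11. The shares of all genes called in these fits are not given here.

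Mrps26 fell the most in CKO cells. It read 50.9, 62.0, 55.9, 60.5, 54.3 and 49.98 CPM at 0 h and 33.0, 33.6 and 35.3 CPM at 6 h, a log2 change of -0.71 ± 0.10 (edgeR adjusted p = 4.0e-05). Mrpl33 read 40.6 to 53.9 CPM at 0 h and 33.8, 31.5 and 32.0 CPM at 6 h (-0.64 ± 0.12, adjusted p = 0.00055). Neither gene overlaps between times, as in CTL. Mrpl22, which lines the tunnel through which new proteins leave, read 13.6 to 16.8 CPM at 0 h and 9.90, 11 and 10.4 CPM at 6 h. Its log2 change was -0.57 ± 0.13 (adjusted p = 0.0028) in CKO and -0.27 ± 0.11 in CTL (adjusted p = 0.029), where the value under total counts was 0.00. In all, 22 members had every CKO library at 6 h below every one at 0 h and 0 had every one above, beside 17.1% and 29.9% of all genes.

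Members called lower in CKO under only 1 or 2 of the 4 scalings included Mrpl57, Mrpl52 and Mrps14. Mrps14 read 17.0, 15.6 and 20.8 CPM in CKO at 6 h against 22 to 31.1 at 0 h (-0.50 ± 0.17, edgeR adjusted p = 0.036, and 0.13 under total counts). Mrpl57 changed by -0.61 ± 0.18 and Mrpl52 by -0.55 ± 0.18 (adjusted p = 0.015 and 0.026, and 0.063 and 0.105 under total counts). In CTL the same 3 genes were not called, and library 4.24 read 38.0, 39.8 and 50.2 CPM for Mrps14, Mrpl57 and Mrpl52 at 6 h, where the other CTL libraries reached 24.4, 23.4 and 28.8. Without it, Mrpl57 and Mrpl52 were called lower in CTL as well (-0.38 and -0.43, adjusted p = 0.0072 and 0.0010), and Mrps14 was at -0.15 (adjusted p = 0.28).

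The 4 members with the largest rise in CTL had smaller log2 changes in CKO, a difference not called for any of them. Since these 4 were picked by their change in CTL, a smaller value in CKO is partly built in. Mrps6 read 22.7, 25.2 and 43.8 CPM in CKO at 6 h against 15.6 to 26.8 at 0 h, a log2 change of 0.54 ± 0.21 (edgeR adjusted p = 0.059). Mrpl20 changed by 0.29 ± 0.14, Mrpl17 by 0.35 ± 0.17 and Mrpl12 by 0.31 ± 0.17 (adjusted p = 0.12, 0.13 and 0.18). In Mrps6, Mrpl20, Mrpl17, Mrpl12 and Mrpl15 the library 11.18 was above both other CKO libraries at 6 h. The sum over all members was also highest in that library, at 2249 CPM against 1925 and 1915 CPM. The log2 change was smaller in CKO than in CTL for 63 of the 78 members, and the share over all genes is not given here. Median log2 changes in CTL and CKO were 0.06 and -0.10 over the members. They were 0.31 and 0.12 over all genes tested, and -0.20 and -0.12 over expressed genes. The order was alike, with a Pearson correlation of 0.81 and a Spearman correlation of 0.79 across members, given as a description, since the groups share numbers and one scaling.

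**Figure D5:**
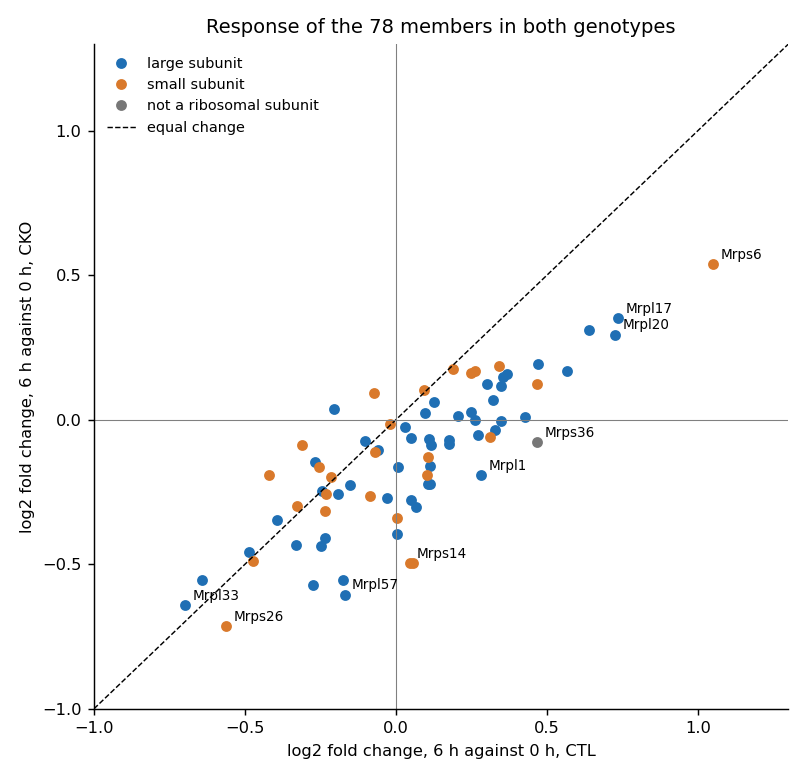
Log2 fold change from 0 h to 6 h of each of the 78 members in CTL (x axis) and CKO (y axis), coloured by subunit, with the line of equal change. For 63 members the point lies below the line, and no member was called different between the responses. The share of all genes below the line is not given.

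The difference between the genotypes was tested directly and no member was called. At 0 h, 0 of 78 members differed between CKO and CTL, also with the number as a replicate block, beside 0.424% of all genes (0.231% higher and 0.192% lower), and 1 had an unadjusted p under 0.05 (Mrpl9, 0.23 ± 0.09 higher in CKO, adjusted p = 0.47). At 6 h, 0 were called, beside 0.292% of all genes (0.253% higher and 0.0392% lower), and 11 had an unadjusted p under 0.05, 10 of them lower in CKO. The lowest p was that of Mrps14, -0.51 ± 0.18 (edgeR adjusted p = 0.32), and -0.34 without library 4.24 of CTL (adjusted p = 0.40). For the difference between both 6 h responses, 0 members and 0 of all genes were called, and 5 members had an unadjusted p under 0.05, all with the smaller value in CKO: Mrpl1, Mrps14, Mrpl20, Mrpl15 and Mrpl11. DESeq2 called 0 members in each of these 3 comparisons. Median log2 differences between CKO and CTL were 0.04 at 0 h and -0.15 at 6 h over the members, and -0.01 and 0.07 over expressed genes. Mrpl9 was the member whose libraries did not overlap between genotypes at either time, with every CKO library above, beside 0.951% of all genes above and 0.979% below at 0 h, and 3.65% and 3.05% at 6 h. Mrpl23 and Mrps21 had every CKO library at 6 h below every CTL library.

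The calls for genes that serve the mitochondrial ribosome differed from list to list in CTL cells. Of 15 tested translation factors, 0 were called higher and 7 lower (edgeR under TMM, where 41.6% of all genes were higher and 21.7% lower), and 4 higher and 5 lower under total counts (50.1% and 13.6%). Guf1, an elongation factor GTPase, fell by 0.92 (log2), from 46.1 ± 4.42 to 24.3 ± 2.08 CPM. Mtif2 and Mtif3, the initiation factors, fell by 0.58 and 0.56, and Mtrf1l, a release factor, fell by 0.43. These 4 and Taco1, a translational activator of cytochrome oxidase that fell by 0.76, were lower under all 4 scalings. Tufm, the elongation factor that brings aminoacyl-tRNA, changed by -0.09 ± 0.11 (adjusted p = 0.49). In CKO, 4 of the 15 were lower and 0 higher, beside 13.1% and 19.6% of all genes, and Guf1 fell by 0.86.

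Of 30 genes for ribosome assembly and ribosomal RNA modification, 2 were called higher and 12 lower in CTL, beside 41.6% and 21.7% of all genes. Under total counts 10 were higher and 2 lower, beside 50.1% and 13.6%. Mettl17 and Rbfa, which act on the small subunit, fell under all 4 scalings (by 0.68 and 0.59). C1qbp, and Lyrm7, which is known as an assembly factor of respiratory complex III, rose under all 4, by 0.96 and 1.08 (edgeR adjusted p = 0.00058 and 7.7e-06). Dap3, a small-subunit protein without a ribosomal symbol, went from 93.7 ± 3.43 to 72.1 ± 4.93 CPM (-0.38 ± 0.07, adjusted p = 0.00014). Oxa1l, the insertase at the exit of the tunnel, changed by -0.29 ± 0.08 (adjusted p = 0.0024, lower under 2 of 4 scalings).

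The import machinery, through which every member's protein enters the organelle had more calls in 1 direction in CTL. Of 18 genes 11 were called higher and 0 lower, beside 41.6% and 21.7% of all genes, and the 11 were higher under all 4 scalings. The 7 not called were Timm44, Dnajc19, Tomm6, Tomm7, Tomm22, Timm9 and Pam16, with log2 changes from -0.08 to 0.20. Timm10 rose by 0.99, Timm8a1 by 0.89, Tomm5 by 0.84 and Timm23, the channel of the inner membrane, by 0.72. The list's median was 0.35 against 0.06 for the ribosomal members and 0.31 for all genes tested. In CKO 1 import gene was higher (Timm23, 0.52, edgeR adjusted p = 0.044) and 1 lower (Dnajc19, -0.40, adjusted p = 0.016), beside 19.6% and 13.1% of all genes. With the stricter filter 6 were higher and 0 lower, beside 16.5% and 17.7%. Of 12 chaperones and proteases 5 were called higher and 2 lower in CTL under TMM, beside 41.6% and 21.7% of all genes. Under total counts 6 and 0 were called, beside 50.1% and 13.6%. Hspd1, Hspe1 and Hspa9, which fold imported proteins, rose by 1.02, 0.59 and 0.60. The protease Clpp rose by 0.41 and the cochaperone Grpel1 by 0.38, and these 5 were higher under all 4 scalings. The protease Spg7 fell by 0.39 (adjusted p = 0.014) and Grpel2 by 0.31 (adjusted p = 0.034), calls that held under 2 and 1 of the 4 scalings.

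Of 12 regulators of mitochondrial gene expression, 4 were called higher and 4 lower in CTL under TMM, beside 41.6% and 21.7% of all genes. Myc went from 70.0 ± 10.4 to 328 ± 125 CPM in CTL (log2 change 2.22 ± 0.26) and changed by 2.41 in CKO. Gabpb1, a subunit of the ETS factor GABP, rose by 0.61, from 50.9 ± 2.22 to 78.2 ± 8.43 CPM. Its partner Gabpa changed by -0.17 ± 0.13 (edgeR adjusted p = 0.27). Nrf1, nuclear respiratory factor 1, changed by -0.17 ± 0.07 (adjusted p = 0.029, lower under 1 of 4 scalings). Esrra and Ppargc1b, a receptor and a coactivator of oxidative genes, fell by 1.24 and 0.87 under TMM and were lower under all 4 scalings. Ppargc1a, the related coactivator, was called higher (2.18 ± 0.49, adjusted p = 0.00083), from 0.553 ± 0.28 CPM to 10.4 CPM in library 4.24 and 0.78 to 1.67 CPM in the other 4. Without library 4.24 its change was 1.19 (adjusted p = 0.0047). Atf4, a transcription factor of the stress response, rose by 0.43 ± 0.13, from 150.0 ± 24.9 to 203 ± 27.8 CPM (adjusted p = 0.0080). Ddit3, another factor of that response, fell by 0.36 (adjusted p = 0.0025, lower under 2 of 4 scalings). The 13 messenger RNAs encoded in mitochondria summed to 13493 to 28806 CPM in CTL at 0 h and 10184 to 14707 CPM at 6 h. Under TMM 0 were called higher and 3 lower, beside 41.6% and 21.7% of all genes. The other 3 scalings called 0 and 1 of these RNAs, beside 27.8% to 50.1% and 13.6% to 24.7% of the genes tested. Their counts were uneven: mt-Co1 averaged 9083 CPM and mt-Co2 0.61 CPM in CTL at 0 h, so no level of the latter was read.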

How the data were processed

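RNA of mouse splenic CD4+CD25- T effector cells was sequenced in 20 libraries, made per the labels' protocols with a stranded mRNA kit from 100 ng of total RNA (integrity numbers 5.0 to 8.7, median 7.4). The authors deposited whole-number counts per Ensembl gene, not normalized. Tools listed in the submitters' processing notes are STAR 2.5.2b, Subread 1.5.2, featureCounts and Trimmomatic 0.36, with the build GRCm38. The strand setting and annotation release: not given in the sources used here. Of 49315 gene IDs, 49056 matched GENCODE M21, the source of symbols, lengths and coordinates.

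Counts were tested with edgeR 4.0.16 (R 4.3.3): filterByExpr (minimum count 10, minimum total 15), which kept 28082 genes, TMM factors, and a quasi-likelihood fit with robust estimation over the 4 groups and the labelled sex, with two-sided tests, Benjamini-Hochberg adjustment over all 28082 genes and a threshold of 0.05. All 20 libraries share one estimate of the spread, as the smallest group has 3. Values after ± are SE for log2 changes and SD for levels. CPM is TMM-scaled. Levels per kb use the messenger RNA length of the main annotated transcript in place of the exon length first planned. The script was tested on simulated data. Alternatives were RLE factors, total counts, other filters, DESeq2 1.42.0, no sex term, Ddx3y level as sex, replicate block, voom with a random block (limma 3.58.1), only the groups compared, and leaving libraries out; fits without library 4.24 of CTL at 6 h under the other scalings were added after seeing the data.

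The labels tie no library to an animal, so p-values measure the spread between these libraries. Same-numbered libraries deviated together: residual correlations were 0.32 to 0.50 over 5 pairs of CTL at 0 h and 6 h, 0.30 to 0.63 over 5 pairs of CKO and CTL at 0 h, and 0.18 to 0.49 over 3 pairs of CKO, so the numbers were taken to pair these groups. Over 43 within-group pairs chi-square of the counts over its degrees of freedom was 18.7 to 271, so no library copies another. Precision rests on the spread between libraries. The members, the gene lists and the tests were chosen with earlier results of these data known. Members given with values in all groups are the called ones with the largest changes in each comparison, the 5 highest and 5 lowest per length, the 4 with the smallest change in CTL, and Mrps18a, Mrps18b, Mrps18c, Mrpl10, Mrpl12 and Mrps36. From other lists, called genes with small adjusted p were named, and others after their values were seen.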

Additional observations from a re-analysis of the deposited data

Results flagged for a closer look

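Of 102 groups of values tested for a library far from the rest, 16 were flagged. Chance would flag about 1 in 20 of independent groups, but these groups share libraries and are not independent. The 16 flags fall on 3 libraries. Library 5.13 of CTL at 0 h stood apart for Mrpl51 at 32.4 CPM (others 24.0 to 26.7) and Mrps6 at 21.3 CPM (others 15.9 to 17.2). Library 5.13 of CKO at 0 h stood apart for the summed level of the members, 2543 CPM where the others had 2084 to 2235. It did so too for Mrpl12 at 42.9, Mrpl15 at 40.6, Mrpl21 at 29.2, Mrpl51 at 36.4 and Mrps21 at 37.7 CPM. These 2 libraries had the lowest TMM factors, 0.89 and 0.86.

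Library 4.24 of CTL at 6 h stood apart for 8 members: Mrpl22 at 16.2, Mrpl27 at 17.0, Mrpl33 at 39.7, Mrpl52 at 50.2, Mrpl57 at 39.8, Mrps14 at 38.0, Mrps18c at 34.8 and Mrps21 at 39.7 CPM. It had the fewest counts, 26427467, the highest TMM factor, 1.37, and 195 CPM of Xist where the other libraries labelled female at 6 h had 742 and 813. The part of these properties in its values was not tested.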

How the results depend on the processing

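In CTL, the count of members called higher after 6 h (23) was 43 under total counts, 42 with expressed genes only (mean CPM at or above 1), 15 with every gene that had a count, 13 with only the groups compared and 8 without CKO libraries 4.24 and 5.6 at 0 h. Of the genes tested, 41.6% were called higher in the main fit, 50.1% under total counts and 27.8% with expressed genes only. Leaving out single libraries gave 8 to 24: 8 without CKO 4.29, CKO 5.6, CKO 9.20 or CTL 5.6 at 0 h, and 9 without CTL 9.20 at 0 h. In those fits the median of expressed genes was -0.30 to -0.27 in place of -0.20. The count called lower (17) was 9 with RLE factors, 4 under total counts, 5 for expressed genes only, 11 with DESeq2 and 13 to 22 when leaving out single libraries. Shares of genes called lower were 21.7% in the main fit, 18.5% with RLE factors, 13.6% under total counts and 24.7% for expressed genes only. In the fits added after seeing the data, without CTL 4.24 at 6 h, 38 were higher under total counts, and 9 lower under total counts and for expressed genes only. The shares over all genes in the other fits are not given here, so those counts describe the members only.

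In CKO, the count called higher (0) was 1 with RLE factors, total counts, expressed genes only, DESeq2, Ddx3y as sex and only the groups compared, 0 to 2 when leaving out single libraries, and 3, 9 and 10 in the added fits (RLE factors, total counts, expressed genes only). The count called lower (17) was 10 with RLE factors, 7 under total counts and for expressed genes only, 11 with every gene that had a count, 8 to 20 when leaving out single libraries, and 10 for expressed genes only in the added fits. Shares of genes called higher in CKO were 19.6% in the main fit, 21.4% with RLE factors, 22.1% under total counts and 16.5% for expressed genes only. Shares called lower in these fits were 13.1%, 11.3%, 10.6% and 17.7%. Between genotypes at 0 h, 1 member was higher in the added fits with total counts and for expressed genes only. The shares over all genes in the other fits of this paragraph are not given here. The sums for CTL at 6 h were 2479 CPM (large 1702, small 765) under total counts, where the values of Mrpl10 and Mrpl22 in CTL turned to 0.0125 and 0.0019.

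With the replicate block, CTL had 16 members higher and 16 lower, and CKO 0 and 17, with the shares over all genes not given here. Of 5408 values of 32 members across settings and comparisons, 5221 kept their side of the threshold, 122 lost the call, 63 gained it and 2 were counted as reversed. The 5221 include uncalled values that changed sign. Mrpl51 in CTL ran from -0.12 to 0.28 over the 35 settings and was called in 0 of them. The 26427467 counts of CTL 4.24 at 6 h limit its precision; all members had counts there.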
